A study of Mus musculus with 11 samples.

Results

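Axon guidance ligands and receptors are the secreted or membrane-bound cues that steer growing axons and the proteins on the axon surface that read them. The 37 genes were taken from a written list of 4 families (netrin, slit, semaphorin and ephrin). No measured value was used, but earlier results of these data were known. All 37 were found among the 22225 protein-coding genes of the mm9 annotation. They comprise 14 ligands and 23 receptors. Open chromatin was measured by ATAC-seq, in which a transposase cuts accessible DNA, in neurons sorted by fluorescence from mouse embryos at embryonic day 14.5. There were 3 libraries of dopaminergic (DA) neurons, called DA 1 to DA 3, and 2 libraries of serotonergic (5-HT) neurons, called 5-HT 1 and 5-HT 2.

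The DA neurons came from the ventral mesencephalon of TH-GFP embryos, a transgenic line kept on C57BL/6J that makes GFP from the Th promoter. The 5-HT neurons came from the hindbrain of Mash1-CRE x ROSA YFP embryos, where cells with a history of Cre carry YFP. In both cases transgenic males had been crossed to Swiss wild-type females. Mash1 is a proneural factor of many progenitors, so its Cre line does not mark the serotonergic lineage alone. The 2 groups differ in cell type, brain region, transgene and line at once, and these cannot be told apart. By the study's methods each library came from its own sort of tissue pooled from several embryos, and the DA sorts gave more cells than the 5-HT sorts, which also cannot be told apart from cell type. The labels do not say whether libraries come from separate litters, so p-values measure only the spread between these samples.

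The labelled cell types were checked at the promoters of marker genes. Each DA library had a peak at the promoters of all 12 genes listed as DA markers, against 9 in 5-HT 1 and 8 in 5-HT 2. Ddc, Nr4a2, Pitx3, Foxa1, Foxa2, En1 and En2 had one in all 5 libraries. By presence of a peak, these do not tell the cell types apart. The study also reports that the sorted hindbrain cells expressed genes of DA neurons. The scores summed over these 12 markers were 90.7, 98.6 and 82.7 in the DA libraries and 40.1 and 27.0 in the 5-HT libraries. Th, which encodes the enzyme that starts dopamine synthesis, and Lmx1a, a transcription factor of DA progenitors, were open at the promoter in every DA library and without a promoter peak in the 5-HT libraries.

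The serotonergic markers gave a mixed picture. Of 5 serotonergic markers, 3, 4 and 3 had a promoter peak in the DA libraries, 4 in 5-HT 1 and 2 in 5-HT 2, with summed scores of 21.7, 21.8, 19.5, 20.3 and 11.1. Fev, a defining transcription factor of 5-HT neurons, had a promoter peak in 5-HT 1 with a score of 3.88 and none in the other 4 libraries. The promoter of Slc6a4, the serotonin transporter, was open in every DA library and had no peak in the 5-HT libraries. Tph2, the enzyme of serotonin synthesis in neurons, was open in all 5, and Gata2 scored 4.20 in 5-HT 1 and 3.11 in DA 2. Gata3 scored 6.98, 4.52 and 4.65 in the DA libraries and 5.13 and 7.51 in the 5-HT libraries. Since the scale of the scores is unnamed, sums and scores compare libraries only loosely. These promoters bear on open chromatin alone. The study reports Tph2 protein and mRNA to be enriched in the sorted YFP-positive cells over the YFP-negative ones, and those measurements were not used here. By presence of a peak, Fev alone of the 5 was found in a 5-HT library and in no DA library.

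Markers of other cells were also present. Of 3 GABAergic markers, 3 had a promoter peak in each DA library and 2 in each 5-HT library, with summed scores of 14.9, 13.9, 12.9, 9.57 and 6.60. The glutamatergic marker Slc17a6 scored 9.97, 12.9 and 12.8 in the DA libraries and 3.65 in 5-HT 1, and had no peak in 5-HT 2. Of 4 markers of radial glia and astrocytes, 3, 4, 3, 3 and 2 were open, and of 2 oligodendrocyte markers, 1, 2, 2, 2 and 2. Of 3 endothelial markers, Cldn5 alone had a peak, in every library but 5-HT 2, and of 2 pericyte markers DA 2 held 2 and DA 3 held 1. The noradrenergic marker Dbh and the microglial markers Cx3cr1 and Csf1r overlapped no region. The part of other cells in the results below was not tested, and a smaller share of cells with an open region and less opening per cell cannot be told apart.

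As background, netrin attracts axons that carry Dcc and repels those that carry Unc5 proteins, and slits repel axons through Robo receptors. Secreted semaphorins act through neuropilins, which bind them, and plexins, which signal, while ephrins are bound to the cell that presents them and are read by Eph receptor kinases. Midbrain DA axons grow forward to the forebrain and hindbrain 5-HT axons both forward and toward the spinal cord, and netrin, slit, semaphorin and ephrin cues have all been studied in the guidance of such monoaminergic axons.

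The deposited files list the same set of regions for each library, with a score that is 0 where that library had no peak. The number of peaks was 52861, 93055 and 94351 in the DA libraries and 38772 and 22879 in the 5-HT libraries. Read depth is not given and is unknown. What scale the score has is not stated, and its lowest value above 0 differed between libraries, from 2.83 in 5-HT 2 to 3.45 in DA 1. Scores were therefore compared by rank within a library, as percentiles in which 100 is the highest peak. A region was counted for a gene when it overlapped the gene body extended by 10 kb on each side. By this rule the 37 genes held 699 regions, none shared between them, of which 61 overlapped a promoter (1 kb upstream to 100 bp downstream of any transcription start site, TSS) and 638 were distal. They took 0.509%, 0.584% and 0.461% of all peaks in the DA libraries and 0.578% and 0.494% in the 5-HT libraries, ranges that overlap. Of distal peaks alone they took 0.568%, 0.635% and 0.487% in the DA libraries and 0.715% and 0.658% in the 5-HT libraries, without overlap. With the 22879 highest scores of each library, the distal shares were 0.494%, 0.503% and 0.429% against 0.518% and 0.658%. Both 5-HT libraries lay above every DA library in these distal shares. In counts the last were 64, 65 and 57 of 12957, 12926 and 13297 against 62 and 78 of 11966 and 11855. By count 5-HT 1 lay inside the DA range. Protein-coding genes of 100 kb or more held 3462, 3291, 3491, 3319 and 3294 of the same distal peaks. That was also a larger part in both 5-HT libraries, so the order is not particular to the members.

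The first question was how densely the genes are covered. The median over the 37 genes was 3.57, 9.03 and 5.61 regions with a peak per 100 kb in the DA libraries, and 2.87 and 1.73 in the 5-HT libraries. Each DA library lay above both 5-HT libraries. Over all protein-coding genes the medians were 3.32, 4.79, 4.42, 2.59 and 1.67. The members are long, with a median length of 156 kb against 15.5 kb, and the 25 members of 100 kb or more had medians of 2.57, 4.70, 4.43, 2.06 and 0.884, against 2.28, 4.28, 3.89, 1.58 and 0.816 for the 2399 protein-coding genes of that length. With the 22879 highest scores of every library kept, the number of peaks in 5-HT 2, the members' medians were 1.19, 1.31, 1.15, 1.22 and 1.73. Over all protein-coding genes they were 1.66, 1.74, 1.57, 1.68 and 1.67. At an equal number of peaks 5-HT 2 stood highest, 5-HT 1 lay inside the DA range, and the members lay below all genes in every library but 5-HT 2. The members of 100 kb or more then had medians of 0.647, 0.863, 0.863, 1.15 and 0.884, against 0.798, 0.788, 0.795, 0.810 and 0.816 for all genes of that length. They lay above these in every library but DA 1, with 5-HT 1 highest.

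Members differed widely in density. Counting a region once whatever the library, Efnb3 held 26.8, Robo3 24.0 and Slit1 23.9 per 100 kb, and Dcc held 1.53. Efnb3 encodes a transmembrane ephrin and spans 6.11 kb, whereas Dcc, the netrin receptor, spans 1092 kb, so the flanks weigh far more in the first. In Slit1 the density was 12.9, 22.0 and 14.1 in the DA libraries and 6.73 and 3.06 in the 5-HT libraries. In Dcc it was 0.899, 1.17 and 1.26 against 0.360 and 0.450. With all peaks, every DA library lay above both 5-HT libraries in both genes. With the 22879 highest scores the groups overlapped, at 5.51, 3.67 and 1.22 against 1.22 and 3.06 in Slit1 and at 0.0899, 0.180 and 0.450 against 0.0899 and 0.450 in Dcc.

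Regions were then sorted by the libraries that hold them. A region in all 3 DA libraries belongs to the DA repertoire and is called DA-only when neither 5-HT library has it, and 5-HT-only is the reverse, held by both 5-HT libraries and by no DA library. The members held 237 regions of the DA repertoire, of which 112 were DA-only, 56 were shared with 1 5-HT library and 69 were in all 5. The DA-only share was 47.3% (95% Wilson interval 41.0 to 53.6%), and over all regions of the files it was 38.6%. Intervals cover counting error only.

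Much of that distance went with place. At promoters, 4 of the members' 48 DA-repertoire regions were DA-only (8.33%), against 7.03% over all promoter regions. Among distal regions 108 of 189 were (57.1%, interval 50 to 64.0%). Over all distal regions of the files the share was 52.5%, and over distal regions of protein-coding genes of 100 kb or more it was 57.5%. The distal share of the members is thus near that of long genes as a class. Without DA 1 the DA-only count rose to 189, while that over all regions rose from 17616 to 32981, and the shares were 54.6% and 50.7%. Without Slit3 the share over all the members' regions was 45.1%.

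Among regions in both 5-HT libraries, 8 of 91 were 5-HT-only (8.79%, interval 4.52 to 16.4%), where 2.73% were over all regions. Over protein-coding genes of 100 kb or more, 3.56% of such regions were 5-HT-only, and 7.24% of the distal ones. The members' 8 were all distal, 8 of 57 (14.0%, interval 7.29 to 25.3%), against 6.07% over all distal regions. The count was 24 without 5-HT 1 and 42 without 5-HT 2, while that over all regions went from 513 to 2144 and 5090, a larger rise. It was 5 without Slit3, and the interval for the members without Slit3 (5 of 84, 2.57 to 13.2%) holds the share over all regions.

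**Figure D1:**
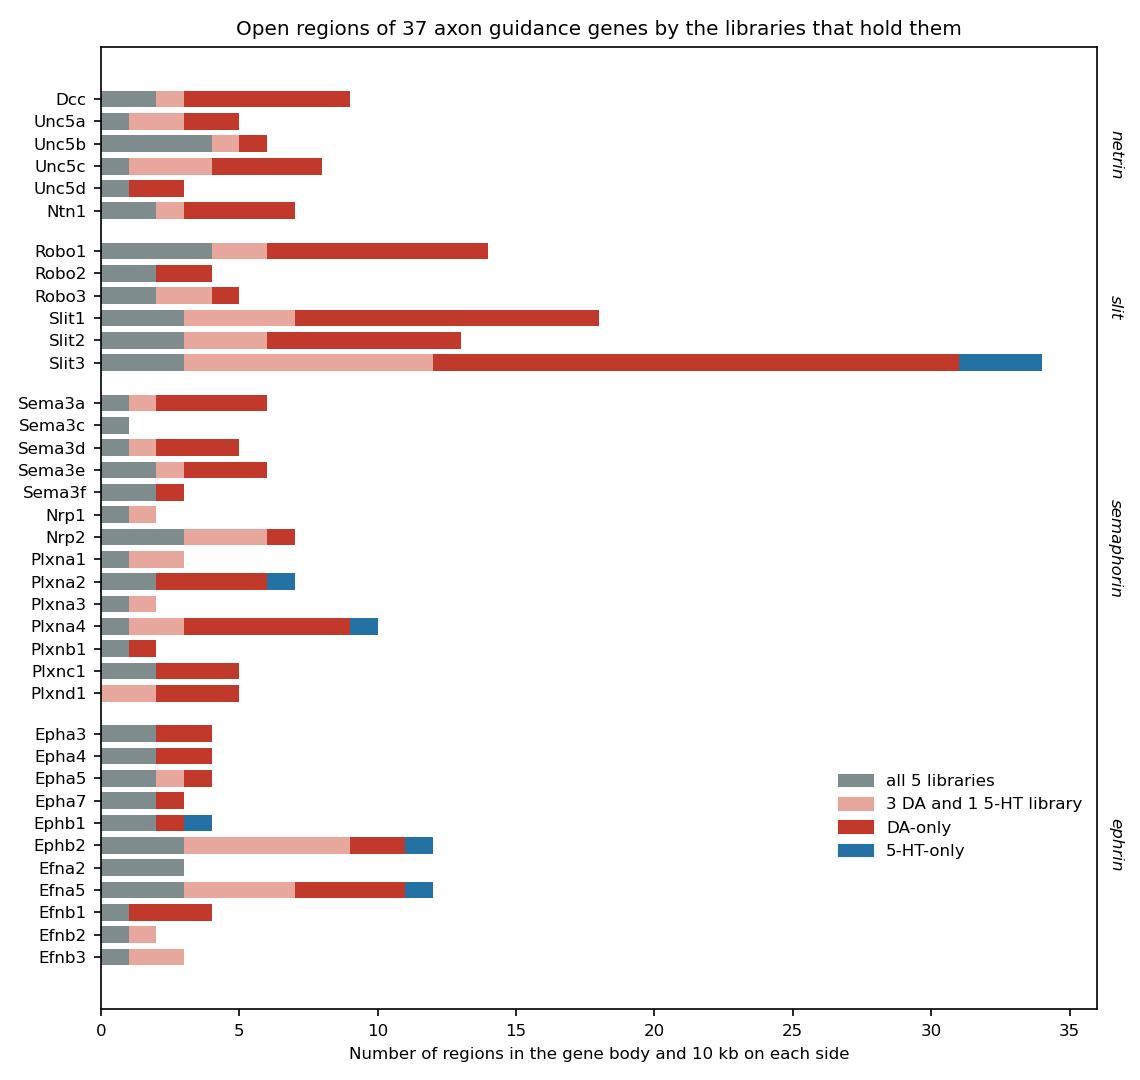
Number of regions (horizontal axis) of each of the 37 genes in the gene body and 10 kb on each side, by family, for 4 classes of region. Slit3 holds the most DA-only regions, 19, and 3 of the 8 5-HT-only regions.

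Since the libraries differ in their number of peaks, the classes were formed again with the 22879 highest scores of each, here called equal peak number. A peak under the cut of its library then counts as absent. A 5-HT-only region may thus hold lower peaks in DA libraries, and a DA-only region one in 5-HT 1. The promoter of Sema3e, with a peak in all 5 libraries, is 5-HT-only by this rule. The DA repertoire of the members then held 49 regions, 14 of them DA-only (28.6%, interval 17.8 to 42.4%), against 16.9% over all regions. Of 57 regions in both 5-HT libraries, 16 were 5-HT-only (28.1%, interval 18.1 to 40.8%), against 15.2%. With peak numbers equal, the members' share was nearly the same in both directions, above that over all regions each time.

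For distal regions alone, 13 of 29 were DA-only (44.8%) and 15 of 30 were 5-HT-only (50%), where all distal regions gave 32.6% and 29.2%, and those of protein-coding genes of 100 kb or more gave 38.5% and 38.5%. Over all regions of these long genes the shares were 22.1% and 22.1%, both within the intervals of the members. The DA-only count was 22 without DA 1 and 40 without 5-HT 2, while that over all regions went from 2825 to 3874 and 7579.

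By gene, 30 of the 37 members (81.1%) had at least 1 DA-only region, against 29.3% of protein-coding genes. Among members of 100 kb or more it was 23 of 25 (92.0%), against 76.4% of protein-coding genes of 100 kb or more. At least 5 DA-only regions were found in 6 members (16.2%), against 1.91% of protein-coding genes, and for the long genes the figures were 24.0% and 16.7%. The 7 members with no DA-only region were Sema3c, Nrp1, Plxna1, Plxna3, Efna2, Efnb2 and Efnb3. Of the 37 members, 9 had a DA-only region at equal peak number (24.3%), against 8.38% of protein-coding genes, and 8 of the 25 long members (32.0%), against 26.6% of long genes. None then had 5 or more. By each of these shares the long members lie nearer to protein-coding genes of 100 kb or more than the members do to all genes. The long members are themselves longer than that class, with a median of 277 kb against 167 kb. Genes were not matched for length beyond the 100 kb limit.

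Promoters were mostly shared by the 5 libraries. All 37 members had a promoter region in the 3 DA libraries, against 59.0% of protein-coding genes, and 30 (81.1%) had one in all 5, against 48.4% of protein-coding genes. Placing regions by their centre gave 15 members. The share of protein-coding genes was not taken by that rule, so the comparison with them rests on overlap. At equal peak number 19 members (51.4%) had one in all 5, against 38.0% of protein-coding genes. In the 3 DA libraries it was then also 19 members (51.4%), against 40.7%. The highest promoter score of the members in each DA library was that of Robo3, a receptor that alters the response to repellents as commissural axons cross the midline. It scored 13.4, 13.5 and 12.3 in the DA libraries and 7.91 and 6.12 in the 5-HT libraries. These stood at the 97.0, 96.0, 96.6, 92.0 and 90.2 percentiles, high in every library. This promoter region lies 2.29 kb inside the gene. The one at the start of the gene scored 4.26, 3.81 and 4.12 in the DA libraries and 3.37 in 5-HT 1, with no peak in 5-HT 2. The promoter of Epha7 stood at 87.4, 96.0, 95.7, 91.2 and 82.9, and that of Ephb1 at 82.3, 89.3, 92.8, 96.6 and 77.5, both with overlapping groups.

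In 7 members no promoter region was present in all 5 libraries. In 6 of them the missing library was 5-HT 2, which has the fewest peaks. The best promoter region of the ligand gene Slit1 scored 4.39, 5.06 and 3.73 in the DA libraries and 4.69 in 5-HT 1. That of Sema3a, a secreted repellent, scored 5.52, 8.59 and 8.06, and 5.49 in 5-HT 1. By percentile, 5-HT 1 lay inside the range of the DA libraries in both.

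The other 4 were receptors. Unc5a scored 4.36, 6.29 and 5.42 in the DA libraries and 4.13 in 5-HT 1. Nrp1, the neuropilin that binds Sema3a, scored 3.86, 4.44 and 4.11, and 4.08 in 5-HT 1. Plxna1, a plexin that signals for neuropilins, scored 5.54, 5.66 and 4.53, and 4.60 in 5-HT 1. By percentile, 5-HT 1 lay inside the DA range in Unc5a and Nrp1 and under it in Plxna1. Plxnd1, the plexin that binds Sema3e directly, scored 3.83, 3.67 and 3.62, and 3.37 in 5-HT 1, all low. In the remaining gene, Efnb3, the promoter scored 4.66, 6.88 and 3.21 in the DA libraries and 4.34 in 5-HT 2, with no peak in 5-HT 1. Presence of these promoters thus turned on 1 library, and without 5-HT 2 a promoter region was shared by all remaining libraries in 36 of the 37 members.

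**Figure D2:**
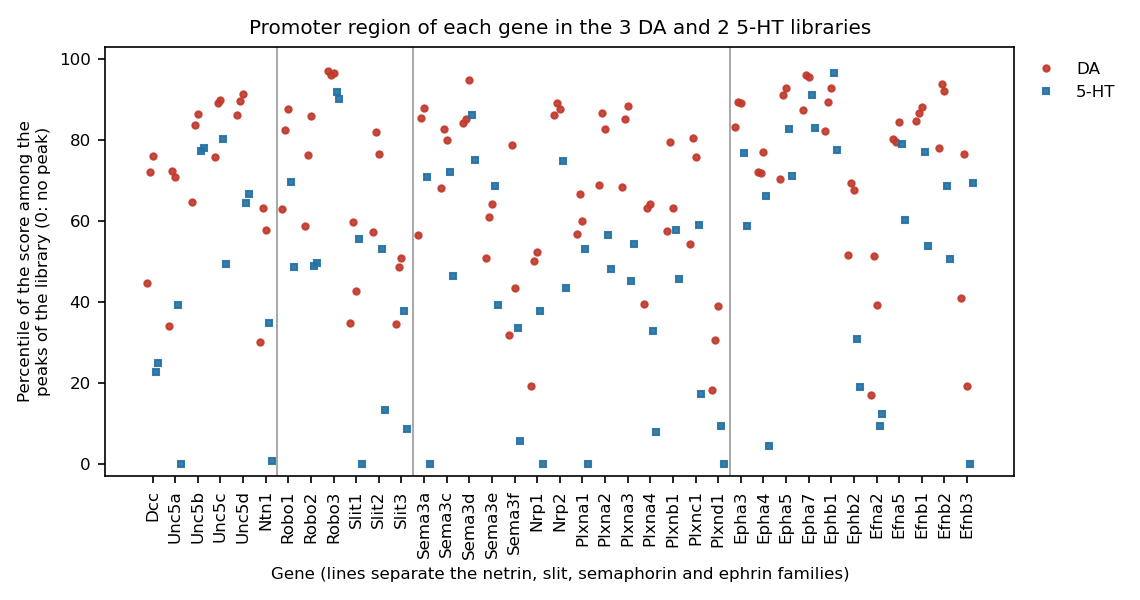
Percentile of the score of the best promoter region among all peaks of its library (vertical axis, 0 for no peak) for each gene, one point per library. Robo3 and Epha7 are high in all 5 libraries, and points at 0 mark the 7 members with a library that lacks the peak.

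A DA-only region at a promoter was found in 4 members (10.8%), against 3.58% of protein-coding genes. In Sema3a it lay at the first TSS (chr5:13125202-13126138, mm9) and scored 6.92, 6.44 and 7.72, at the 73.0, 73.5 and 86.4 percentiles. These are high peaks in each DA library, with none in either 5-HT library. The other 3 were weaker. An inner promoter of Slit2 (chr5:48573122-48573640) scored 3.54, 4.42 and 4.14. One of Plxnd1 (chr6:115906612-115907474) scored 4.60, 4.02 and 3.34, and one of Efnb1 (chrX:96332646-96333276) scored 3.71, 3.74 and 3.11. These 3 regions were low or middling in the DA libraries, and each of the 4 genes has a further promoter region that 5-HT 1 also holds. When peak numbers were equal, no member had a DA-only region at its own promoter.

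The families were described one by one, ligands first. In the netrin family, 19 of 38 regions of the DA repertoire were DA-only (50%, interval 34.8 to 65.2%) and none of 14 regions in both 5-HT libraries was 5-HT-only (upper bound 21.5%). The ligand gene Ntn1 held 4 DA-only regions, with 9, 20 and 9 peaks in the DA libraries and 4 in each 5-HT library. With all peaks, every DA library held more than either 5-HT library. The counts of Ntn1 at equal peak number were 0, 1 and 0 against 1 and 4, with 5-HT 2 highest, none of the family's 5 DA-repertoire regions was DA-only, and 2 of 7 regions in both 5-HT libraries were 5-HT-only (28.6%).

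Among netrin receptors, Dcc, which mediates attraction, held 6 DA-only regions, with 10, 13 and 14 peaks in the DA libraries and 4 and 5 in the 5-HT libraries. Unc5c, which mediates repulsion, held 4, with 10, 17 and 20 peaks against 6 and 3. With all peaks the groups did not overlap in either gene. When peak numbers were equal, they did, at 1, 2 and 5 against 1 and 5 in Dcc and at 3, 3 and 2 against 2 and 3 in Unc5c. The highest-ranked DA-only region of the family lay past the end of Unc5c, 373 kb from its start, in an exon of the neighbour Bmpr1b (chr3:141501621-141502110), and scored 7.65, 6.73 and 5.94, at or above the 75.5 percentile in each DA library. Of the remaining repulsive receptors, Unc5a and Unc5d held 2 DA-only regions each and Unc5b 1.

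In the slit family, 48 of 85 regions were DA-only (56.5%, interval 45.9 to 66.5%). With all peaks this was the highest share of the 4 families, and its interval overlaps those of the netrin and semaphorin families and not that of the ephrin family. At equal peak number the order of families changed, with 4 of 15 DA-only in the slit family (26.7%), 6 of 17 in the semaphorin (35.3%), 4 of 12 in the ephrin (33.3%) and none of 5 in the netrin family. Of the slit regions in both 5-HT libraries, 3 of 22 were 5-HT-only (13.6%) with all peaks, and 3 of 13 (23.1%) at equal peak number. Regions are not replicates, and the difference between families was not tested. The 3 ligands are secreted repellents. Slit3 held 19, spread over the gene from 5.43 kb to 572 kb after its start, and 3 protein-coding genes have more DA-only regions. Slit1 held 11 and 40 protein-coding genes have more, and Slit2 held 7.

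Slit3 had 34, 65 and 48 peaks in the DA libraries and 24 and 8 in the 5-HT libraries. Slit1 had 21, 36 and 23 against 11 and 5. With all peaks, every DA library held more than either 5-HT library in both genes. When peak numbers were equal, the order turned in Slit3, with 6, 7 and 7 against 10 and 8, and the groups overlapped in Slit1, with 9, 6 and 2 against 2 and 5. The highest DA-only regions of Slit3 were in introns near the end of the gene. The region chr11:35506584-35507027 scored 6.47, 10.6 and 6.35 and chr11:35481753-35481958 scored 6.31, 7.83 and 6.31. Both remained DA-only with the 22879 highest scores, and no other DA-only region of Slit3 did. Without Slit3 the slit family had 29 DA-only regions among 54 (53.7%, interval 40.6 to 66.3%), an interval that overlaps those of the 3 other families.

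Slit3 also held 3 of the 8 5-HT-only regions, which lie between its DA-only regions. In the 2 5-HT libraries chr11:35326193-35327225 scored 4.49 and 3.82, chr11:35337355-35337636 scored 3.84 and 2.87, and chr11:35438114-35438674 scored 4.28 and 3.20. The first stood at the 50.3 and 54.8 percentiles, in the middle of both libraries, and the second at 28.2 and 2.79, close to the weakest peaks of 5-HT 2. The promoter of Slit3 was open in all 5, with scores of 4.38, 4.37, 4.05, 4.08 and 2.96.

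**Figure D3:**
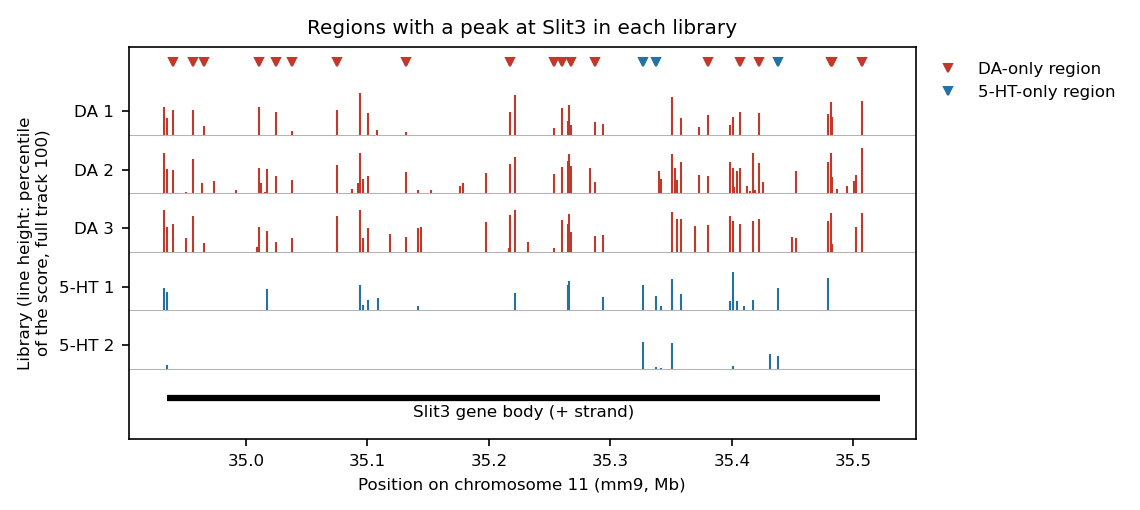
Regions with a peak at Slit3 along chromosome 11 (mm9, megabases), one track per library, with line height showing the percentile of the score within that library. Triangles mark the 19 DA-only and 3 5-HT-only regions, and 5-HT 2 has 8 peaks where DA 2 has 65.

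Among slit receptors, Robo1 held 8 DA-only regions, Robo2 held 2 and Robo3 held 1. The highest-ranked DA-only region of the family was in an intron of Robo1 (chr16:72778719-72780239), with scores of 10.2, 12.4 and 8.22 at the 91.4, 94.8 and 88.4 percentiles. All 3 DA libraries were high there, neither 5-HT library had a peak, and it stayed DA-only with the 22879 highest scores. No other DA-only region of the 37 genes ranked as high in its lowest DA library.

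In the semaphorin family, 29 of 62 regions were DA-only (46.8%, interval 34.9 to 59.0%) and 2 of 25 were 5-HT-only (8%). Equal peak numbers gave 7 of 19 5-HT-only (36.8%, interval 19.1 to 59.0%). Among ligands, Sema3a held 4 DA-only regions, Sema3d and Sema3e 3 each, Sema3f, which acts through Nrp2, 1, and Sema3c none. Sema3a had 7, 13 and 18 peaks in the DA libraries and 5 and 3 in the 5-HT libraries, with no overlap of the groups. At equal peak number the order turned, with 2, 1 and 2 against 3 and 3. Both regions of Sema3d that stayed DA-only with the 22879 highest scores were intronic, and chr5:12562324-12562495 scored 6.06, 9.81 and 8.71.

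Among semaphorin receptors, the plexin Plxna4 held 6 DA-only regions and Plxna2 held 4. Plxna4 had 13, 20 and 12 peaks in the DA libraries and 9 and 4 in the 5-HT libraries, and Plxna2 had 6, 15 and 9 against 5 and 4. With all peaks the groups did not overlap in either gene, by a single peak in Plxna2. When peak numbers were equal, they overlapped or tied, at 3, 4 and 4 against 2 and 4 in Plxna4 and at 5, 4 and 4 against 4 and 4 in Plxna2. The highest-ranked DA-only region of the family was in an intron of Plxna4 (chr6:32341913-32342819), with scores of 8.31, 8.35 and 8.01 at the 83.2, 84.5 and 87.7 percentiles. It stayed DA-only with the 22879 highest scores, as did an intronic region of Plxna2 (chr1:196565830-196566515) that scored 8.22, 14.5 and 7.88.

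Of the remaining receptors, Plxnc1, which binds Sema7a, and Plxnd1 held 3 DA-only regions each. Nrp2 and Plxnb1, the receptor of Sema4d, held 1 each. The 5-HT-only regions were intronic. That of Plxna4 (chr6:32211376-32211664) scored 4.70 and 5.06, at the 55.8 and 81.3 percentiles, the highest-ranked of the 8. That of Plxna2 (chr1:196547561-196547815) scored 4.25 and 2.89, and was weak in 5-HT 2.

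In the ephrin family, 16 of 52 regions were DA-only (30.8%, interval 19.9 to 44.3%). With all peaks this was the lowest share of the 4 families and under that over all regions, which its interval holds. At equal peak number it was above that over all regions, at 33.3%, with an interval of 13.8 to 60.9% that holds the share over all regions. Of 30 regions in both 5-HT libraries, 3 were 5-HT-only (10.0%). Among ligands, Efna5, a membrane-anchored ephrin, held 4 DA-only regions and Efnb1, a transmembrane ephrin, held 3, while Efna2, Efnb2 and Efnb3 held none. Efna5 had 11, 28 and 23 peaks in the DA libraries and 14 and 6 in the 5-HT libraries, so the groups overlapped. Efnb1 had 4, 4 and 6 against 1 and 1, with no overlap. When peak numbers were equal, the groups overlapped in both, at 6, 5 and 5 against 5 and 6 in Efna5 and at 2, 1 and 1 against 1 and 1 in Efnb1. The highest-ranked DA-only region was in an intron of Efna5 (chr17:63053199-63053505) and scored 5.91, 8.82 and 6.37, at the 61.8, 86.3 and 78.7 percentiles.

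Eph receptors held few DA-only regions. There were 2 each in Epha3, Epha4 and Ephb2 and 1 each in Epha5, Epha7 and Ephb1. The 3 5-HT-only regions of the family were intronic. All 3 scored under the median peak of 5-HT 1 (4.48), and only that of Ephb1 scored above the median peak of 5-HT 2 (3.69). That of Ephb1 (chr9:102145645-102145884) scored 3.53 and 3.88, that of Ephb2 (chr4:136339782-136340015) 3.75 and 3.53, and that of Efna5 (chr17:63041675-63041937) 3.38 and 3.22. None of these 3 stayed 5-HT-only at equal peak number, where 4 other regions of the family, of 18, were 5-HT-only (22.2%).

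By role, 59 of 113 DA-repertoire regions of ligands were DA-only (52.2%, interval 43.1 to 61.2%) and 53 of 124 of receptors (42.7%, interval 34.4 to 51.5%). At equal peak number it was 8 of 21 (38.1%) and 6 of 28 (21.4%). The intervals overlap both times. The 5-HT-only counts were 4 of 35 and 4 of 56 with all peaks, and 8 of 20 (40%, interval 21.9 to 61.3%) and 8 of 37 (21.6%, interval 11.4 to 37.2%) at equal peak number.

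DA-only regions of the members were narrower and farther from promoters than their regions in all 5 libraries. Of the 112, 98 lay in introns of their gene, a place that the choice of gene bodies favours, against 43.9% of all DA-only regions of the files. The median width was 551.5 bp, the median distance to the nearest TSS of the gene was 54.2 kb, and 57 lay over 50 kb away. Of the 69 regions in all 5 libraries, 31 overlapped a promoter of their gene and 2 that of another gene, with a median width of 1117 bp and a median distance of 2.69 kb. Over all regions in all 5 libraries, 62.4% lay at promoters. Over all regions of the files the median widths were 523 bp for DA-only regions and 1091 bp for regions in all 5. The 8 5-HT-only regions had a median width of 272.5 bp, and the 16 at equal peak number one of 557.5 bp. The members' 454 regions in none of the classes, 393 of them intronic, had a median width of 272.5 bp and a median distance of 58.1 kb. With all peaks the DA-only regions were thus wider than these and no farther from promoters. At equal peak number the 14 DA-only regions were wider and farther, with medians of 650 bp and 119.8 kb, against 337 bp and 53.1 kb.

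Where all 5 libraries had a peak, ranks were compared by a limma fit over all 16856 such regions of the files, on normal scores of the ranks in each library. Of the members' 69 such regions, 1 was higher in DA neurons, where 0.368% of all regions were, and 1 was higher in 5-HT neurons, where 0.795% were. At an unadjusted p under 0.05, 14 of the 69 passed, against 17.1% of all regions, and 12 of the 14 were higher in 5-HT neurons, as were 1513 of the 2890 that passed over all regions. The median difference, DA minus 5-HT, was -0.0820 for the members and 0.0166 for all regions. None of the 31 promoter regions tested passed the adjusted threshold. The 3 that passed the unadjusted one were those of Unc5b, Sema3e and Ephb1, each higher in 5-HT neurons. For the Sema3e promoter the difference was -0.760 (limma p 0.0257, adjusted p 0.219), opposite in sign to the intronic region of that gene given next.

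The region higher in DA neurons lay in an intron of Sema3e (chr5:14038962-14039539), whose product repels axons through Plxnd1. It scored 17.8, 15.0 and 17.5 in the DA libraries and 4.78 and 3.71 in the 5-HT libraries. By percentile among all peaks of a library, the DA libraries were very high, at 99.3, 97.3 and 99.1, and the 5-HT libraries middling, at 57.5 and 50.9, with no overlap. The difference in normal scores was 2.00 ± 0.344 (SE), limma adjusted p 0.0372, with the alternatives from 0.0135 to 0.208.

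The region higher in 5-HT neurons lay in an intron of Efna5 (chr17:63008816-63009709). It scored 5.57, 5.58 and 5.27 in the DA libraries and 7.36 and 4.56 in the 5-HT libraries. The scores overlap, while the percentiles among the 16856 shared regions do not, at 23.1, 14.0 and 16.4 against 78.0 and 65.9. The difference was -1.52 ± 0.285 (SE), limma adjusted p 0.0434, with the alternatives from 0.0197 to 0.223. Leaving out DA 1, DA 2 or DA 3 left 0 member regions past the adjusted threshold, with 10, 11 and 11 past the unadjusted one. The same fits called 0 of all regions, with 2133, 1976 and 1944 past the unadjusted threshold. Leaving out 5-HT 1 gave 12 of 72, against 2544 of 18195 over all regions. Leaving out 5-HT 2 gave 6 of 122, against 1436 of 26717. Both named regions were among those called in these fits.

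Fixed words known from transcription factors of these neurons were searched on either strand of 200 bp windows at the centre of the 108 distal DA-only regions of the members. They were set beside the members' 36 distal regions in all 5 libraries, all 16631 distal DA-only regions and all 6332 distal regions in all 5. The word AAAGGTCA, a site type of NR4A receptors, was in 7 of 108 (6.48%), 0 of 36, 3.64% and 0.758%. The 7 regions belong to Unc5c, Slit3 (2 regions), Sema3a, Plxna4, Plxnc1 and Plxnd1. The forkhead words TGTTTGC and TGTTTAC were in 10.2% and 0% of the members' DA-only regions, and in 9.57% and 5.52% of all DA-only regions.

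The homeodomain words TAATTA and TAATCC were in 12.0% and 11.1% of the members' DA-only regions, 11.1% and 11.1% of their regions in all 5, 9.13% and 10.5% of all DA-only regions and 5.48% and 4.93% of all regions in all 5. The E-box words CATCTG and CAGCTG were in 27.8% and 24.1% of the members' DA-only regions and 23.3% and 24.0% of all DA-only regions. AGATAA, a site type of zinc-finger factors, was in 11.1%, against 10.8% of all DA-only regions, and GGAAGT, of ETS factors, was in 7.41%, against 10.6%. The shares of the members lie near those of all DA-only regions for most words, on few regions, and a match is a description of the letters and not of binding. Median GC content was 48.0% in the members' DA-only windows and 54.5% in their windows in all 5, against 47.5% and 51.5% in all regions of these classes.

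The sequences below are the central 200 bases, on the + strand of mm9, of a high-ranked DA-only region outside exons in each family, shown since every DA library and neither 5-HT library has a peak there. Those of Robo1, Plxna4 and Efna5 are the highest of their family and stay DA-only with the 22879 highest scores. That of Unc5d does not, and regions of Unc5c and Dcc ranked above it. They are chr8:30287917-30288116 for Unc5d, chr16:72779380-72779579 for Robo1, chr6:32342267-32342466 for Plxna4 and chr17:63053253-63053452 for Efna5. Capitals mark any of the 9 words above, on either strand, and the last window holds none.
Unc5d DA-only: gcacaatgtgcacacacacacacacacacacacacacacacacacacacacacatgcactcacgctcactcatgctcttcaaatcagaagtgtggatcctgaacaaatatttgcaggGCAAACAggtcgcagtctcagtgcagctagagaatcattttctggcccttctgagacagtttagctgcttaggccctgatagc
Robo1 DA-only: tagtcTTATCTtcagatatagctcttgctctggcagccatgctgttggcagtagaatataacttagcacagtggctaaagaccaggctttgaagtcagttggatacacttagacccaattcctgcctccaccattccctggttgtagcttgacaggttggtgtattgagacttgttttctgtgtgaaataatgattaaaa
Plxna4 DA-only: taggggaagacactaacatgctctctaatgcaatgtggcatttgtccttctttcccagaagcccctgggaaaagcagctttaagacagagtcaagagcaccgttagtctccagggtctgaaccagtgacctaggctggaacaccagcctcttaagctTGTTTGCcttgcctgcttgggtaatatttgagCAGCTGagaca
Efna5 DA-only: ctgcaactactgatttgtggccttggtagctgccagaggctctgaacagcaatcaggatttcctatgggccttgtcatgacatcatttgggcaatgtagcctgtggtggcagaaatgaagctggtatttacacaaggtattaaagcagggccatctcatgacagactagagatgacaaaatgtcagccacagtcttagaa

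The next set shows the highest-ranked 5-HT-only region, in Plxna4 (chr6:32211421-32211620), both regions called by limma, in Sema3e (chr5:14039151-14039350) and Efna5 (chr17:63009163-63009362), and the 200 bases before the first TSS of Sema3a (chr5:13125393-13125592), whose promoter region is DA-only. All are on the + strand of mm9, with capitals as before. The Sema3e and Sema3a windows hold none of the 9 words.
Plxna4 5-HT-only: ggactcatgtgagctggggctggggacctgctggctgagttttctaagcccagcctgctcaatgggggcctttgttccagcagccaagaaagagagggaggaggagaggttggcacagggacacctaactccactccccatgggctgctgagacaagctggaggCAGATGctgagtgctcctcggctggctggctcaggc
Sema3e limma: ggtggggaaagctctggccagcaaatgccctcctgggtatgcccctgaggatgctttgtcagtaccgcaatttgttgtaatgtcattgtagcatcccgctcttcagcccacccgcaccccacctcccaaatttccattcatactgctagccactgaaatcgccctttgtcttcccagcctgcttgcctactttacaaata
Efna5 limma: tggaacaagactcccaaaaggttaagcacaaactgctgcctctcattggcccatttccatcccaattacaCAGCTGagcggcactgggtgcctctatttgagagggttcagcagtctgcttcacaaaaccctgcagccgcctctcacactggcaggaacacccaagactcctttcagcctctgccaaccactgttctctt
Sema3a promoter: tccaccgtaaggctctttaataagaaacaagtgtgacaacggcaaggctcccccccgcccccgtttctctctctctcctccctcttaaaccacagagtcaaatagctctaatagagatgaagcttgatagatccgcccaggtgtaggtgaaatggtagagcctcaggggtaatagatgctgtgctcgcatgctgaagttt

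For comparison, 39 other genes of the same 4 families, listed without regard to their values but with earlier results known, held 466 regions. Of their 160 regions in the DA repertoire 56 were DA-only (35.0%, interval 28.0 to 42.7%), and of 64 in both 5-HT libraries none was 5-HT-only (upper bound 5.66%), where all regions gave 38.6% and 2.73%. Equal peak numbers gave 5 of 45 DA-only (11.1%) and 9 of 48 5-HT-only (18.8%), where all regions gave 16.9% and 15.2%. The genes with the most DA-only regions were Dscam, a netrin receptor (11), Srgap3, which acts downstream of Robo (9), and the transmembrane semaphorin Sema5a (6). A promoter region was in all 5 libraries in 24 of the 39 (61.5%), against 48.4% of protein-coding genes, and at equal peak number in 12 (30.8%), against 38.0%. These genes are shorter, with a median length of 27.4 kb, and with all peaks the interval of their DA-only share overlaps that of the members.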

How the data were processed

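Score files of 3 DA and 2 5-HT ATAC-seq libraries were read, and the 6 RNA-seq samples were not analysed here. By the paper's methods and the submitters' processing notes, the authors used Trimmomatic, FastQC, Bowtie2 (mm9), Picard, MACS2 and HOMER, with no versions or peak threshold given, and merged peaks less than 100 bp apart. The authors deposited a score per region, whose scale is not named, and the usual columns for signal, p and q hold -1. One line with chromosome "crY" was read as chrY.

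Regions were assigned to mm9 gene bodies with 10 kb on each side. Shares carry 95% Wilson intervals. limma 3.58.1 (R 4.3.3) was fitted to normal scores of within-library ranks over all regions with a peak in all 5 libraries, by cell type alone, with p-values adjusted by Benjamini-Hochberg at 0.05. Sequences were read with pysam 0.24.0 and samtools 1.23.1, figures drawn with matplotlib 3.10.9, and tables made with pandas 2.3.3, SciPy 1.17.1 and NumPy 2.4.6 under Python 3.11.15. The computations were tested on simulated data.

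Values in every library were given for members without a promoter region in all 5 libraries, the 2 members of each family with the most DA-only regions (more where tied), the DA-only region of each family with the highest lowest percentile over the DA libraries, 5-HT-only regions and regions called by limma. Values of other members, such as Robo3, were chosen after they were seen. The members and lists were chosen with earlier results of these data known. The study itself had reported axon guidance terms for genes with DA-specific peaks in exons or introns. Of 40 other genes of the families listed, 1 (Draxin) was not in the annotation. Alternatives varied the peaks kept, the span, the overlap, the promoter, the fit and the libraries.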

Additional observations from a re-analysis of the deposited data

How the results depend on the processing

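Both regions called by limma kept the sign of their difference under the alternatives fitted, and over the pairings of region and fit the adjusted p was past the threshold 7 times and not 11 times. Of the counts, that of limma calls among them, and the values without a test, 46 comparisons with an alternative stayed within 1.5 times a count or within the spread or interval of a value, and 29 did not.

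The order of the cell types depended on peak number. DA-only regions outnumbered 5-HT-only regions with all peaks, 112 to 8, and did not with fewer. With each library limited to its 22879 highest scores there were 14 DA-only and 16 5-HT-only member regions. The DA-only share was 28.6%, and 19 members had a promoter region in all 5 libraries. Medians per 100 kb were 1.19 in DA 1, 1.31 in DA 2, 1.15 in DA 3 and 1.22 in 5-HT 1, with 5-HT 2 the highest. With all peaks the DA medians were 3.57, 9.03 and 5.61, so each fell. The fall in DA 1 was less than their standard deviation, 2.76, which is wide and does not make DA 1 stable. With the 10000 highest scores the DA-only count fell to 2, both from all peaks and from the equal number, beside 6 5-HT-only regions. Over all regions the counts were then 743 and 563. The share was 25.0% of 8 regions, against 11% over all regions, and 3 promoters were shared. Read depth is unknown and limits every presence call.

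Counting regions in at least 2 of 3 DA libraries gave 202 DA-only regions, and 36650 over all regions. Placing a promoter region by its centre gave 15 shared promoters, with no share of protein-coding genes taken by that rule. Merging nearby regions, spans without the flanks or with 50 kb, a stricter overlap and the other promoter definitions kept each count within 1.5 times its value. Chosen after seeing the data, the share over distal regions alone was 57.1%, and without Slit3 there were 5 5-HT-only regions.

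Leaving out each library in turn gave 115 to 189 DA-only regions (18955 to 32981 over all regions), 8 to 42 5-HT-only regions (527 to 5090), a share of 47.1 to 69.6%, 20 to 40 DA-only regions at equal peak number, 30 to 36 shared promoters and 0 to 12 regions called by limma (0 to 2544). Over all regions the share was 40.2 to 60.2%, and the DA-only count at equal peak number was 3590 to 7579. The members' highest share, 69.6%, and that over all regions both came without 5-HT 1. With 5-HT 1 or 5-HT 2 left out, the lone 5-HT library was assumed to vary like the DA libraries.

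The replicate number as a block called 0 member regions and 0 of all 16856, with 8 and 1879 at an unadjusted p under 0.05. The labels give no pairing beyond the shared number, and the correlation of the residual ranks of like-numbered libraries was -0.00974 and 0.0197. An intensity trend called 1, in Sema3e, and 122 over all regions. Over regions in at least 4 libraries limma called 2 others of 135, in Epha7 and Plxnd1, and 412 of all 29008. The cause was not tested for any of these changes.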
